A study of Mus musculus with 6 samples.

Results

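The heat-shock chaperones described here are 10 mouse genes of the cytosolic HSP90 and HSP70 machines and of the mitochondrial HSP60 chaperonin: Hsp90ab1, Hsp90aa1, Chordc1, Hspa8, Hspa4, Hsph1, Dnajb1, Bag3, Hspd1 and Hspe1. They were taken by symbol from a deposited table of 41921 gene rows, in which 8 of the 10 symbols were found. Hspa8 and Hsp90aa1 had no row under their symbols. Each is represented here by an unnamed protein-coding row chosen, after the table had been seen, from its deposited protein description, and is marked as such below.

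RNA was sequenced from RAW264.7 cells, a line of mouse monocytes and macrophages of wild-type genotype that forms osteoclasts, the cells that resorb bone, under the cytokine RANKL. The labels give 3 albiflorin libraries and 3 RANKL libraries; albiflorin is a monoterpene glycoside of peony. All 6 carry the same treatment text, which gives RANKL at 50 ng/mL to cells 3 days past confluence, so the RANKL libraries serve as the control and no untreated cells were analysed here. The dose and time of albiflorin, and whether those cells also had RANKL beyond the shared text, are not stated. RAW264.7 is a single transformed line, and nothing says that replicates were separate cultures, so the p-values cover the spread of these 6 libraries alone and part of it may be technical.

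HSP70 proteins such as the one made by Hspa8 bind unfolded segments in an ATP cycle. J-domain proteins start that cycle, and exchange factors of the HSP110 and BAG families end it by releasing ADP. HSP90 takes over partly folded clients, many of them kinases and receptors, with the help of co-chaperones. In mitochondria, HSP60 rings close around a client under a lid of HSP10. Under heat or proteotoxic stress the transcription factor HSF1 binds inverted repeats of the letters GAA, called heat-shock elements, in front of many of these genes.

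Promoter sequences are shown first because these repeats are the element that the family's stress response is known for. Windows from 250 bases before to 50 bases after an annotated start were taken from RefSeq (build GRCm38.p6) and matched 7 of the 10 members by symbol, in 10 windows; Hspa8, Hsp90aa1 and Hsp90ab1 were not matched. The 2-unit motifs searched were GAANNTTC and TTCNNGAA, each its own reverse complement. The 3-unit motifs add to either of them the letters NN and a further unit, GAA after TTC or TTC after GAA; they are each other's reverse complement and contain both 2-unit motifs, so both strands were covered. A 2-unit motif lay in a window of 5 of the 7 members, against 17.0% of 27025 genes in the table. A 3-unit motif lay in a window of 4 of the 7 (Hspd1, Hspe1, Hsph1 and Chordc1), against 0.662% of genes. Capitals mark the matched repeat in the 2 longest runs, each read 5′ to 3′ on the gene's strand.
Hspe1, chr1:55088019-55088088, plus strand: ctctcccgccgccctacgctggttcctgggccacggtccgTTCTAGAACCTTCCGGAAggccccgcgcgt
Chordc1, chr9:18292223-18292285, plus strand: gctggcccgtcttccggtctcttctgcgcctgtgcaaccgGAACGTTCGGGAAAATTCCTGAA

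The Hspe1 repeat is 18 bases long with 4 units and lies 89 to 72 bases before the annotated start. Hspd1 is transcribed away from Hspe1 on the other strand, and the same 18 bases, read there as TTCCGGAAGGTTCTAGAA, lie 144 to 127 bases before one of its 2 annotated starts. The window of its other start held no match. The Chordc1 run of 23 bases has 5 units and spans the start. Hsph1 held TTCTCGAA before its start and the 3-unit TTCTGGAAAGTTC after it, and Bag3 held GAAGTTTC after its start. Neither Dnajb1 window and not the Hspa4 window held a match, which says only that these letters are absent from those bases. A match is a description of the sequence, not a bound site.

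With albiflorin, 1 of the 10 chaperones was called higher and none was called lower. Hspe1, the HSP10 lid, was 36.7% more abundant by the fitted fold, while its partner Hspd1, the HSP60 ring, was not called. The call of Hspe1 ended when a trend with mRNA length was removed (log2 fold change 0.077, edgeR adjusted p = 0.43), and Hspa4 and Chordc1 were then called higher. It was kept in the other 16 of 17 alternatives. With a trend on the listed gene length removed instead, Hspe1 stood at 0.22 (edgeR adjusted p = 0.034). In that fit Hspa4 was called higher and the Hsp90aa1 row lower (edgeR adjusted p = 0.019 and 0.031). The most abundant cytosolic chaperones, Hsp90ab1 and Hspa8, differed by less than the spread between libraries. All 10 rows passed the filter on low counts. A call is an adjusted p under 0.05 in edgeR's quasi-likelihood test with Benjamini-Hochberg adjustment over 13158 tested genes, of which 12.4% were called higher and 11.4% lower, 23.8% in all. Against that background 1 of 8 rows found by symbol, or 1 of 10 with the described rows, is close to the share of all genes. The median log2 fold change (albiflorin over RANKL) was 0.04 over the 8 rows and 0.04 over the 10, against 0.0056 over all tested genes. The 95% intervals of the 9 members not called reached from a 0.81-fold to a 1.25-fold level at their widest, so changes beyond those bounds lay outside every one of them. In bulk RNA, fewer cells with a transcript and less of it per cell cannot be told apart.

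**Figure D1:**
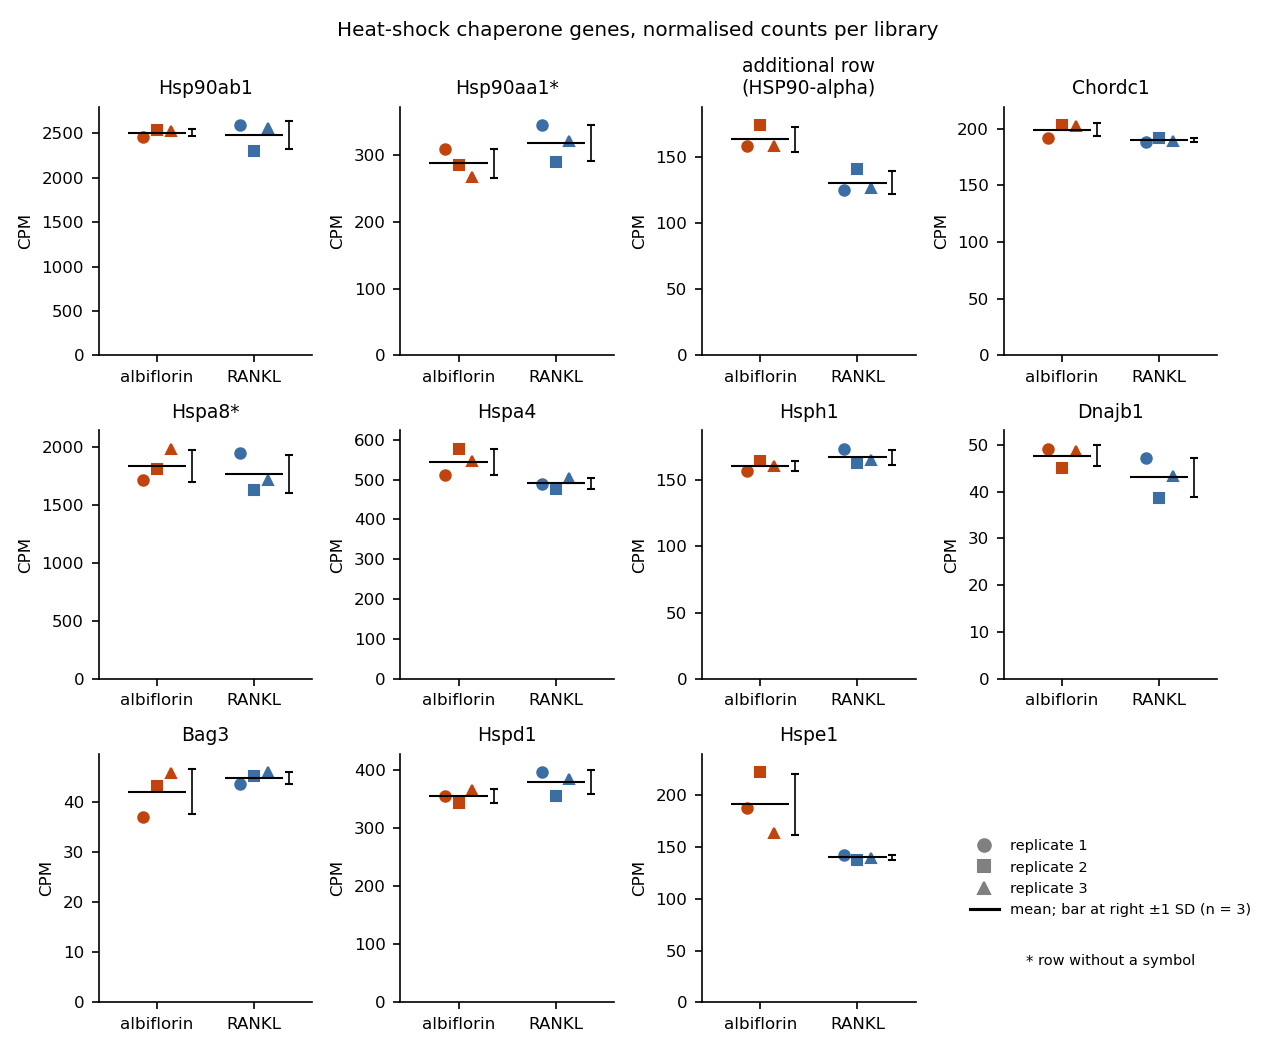
Normalised counts (CPM, counts scaled to TMM-adjusted library sizes, linear axis from 0) of the 10 chaperones and an additional HSP90-alpha row in 3 albiflorin and 3 RANKL libraries; points are libraries, lines are group means and bars are ±1 SD. Hspe1 lies at 163 to 222 CPM in albiflorin libraries and at 137 to 143 CPM in RANKL libraries, and most other panels overlap.

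Coordinates of genes are those of the deposited table, whose build is not given. The members' gene identifiers name the mouse strain C57BL6NJ, and the positions differ from those of the GRCm38.p6 promoter windows above. Hsp90ab1 encodes the constitutive cytosolic HSP90-beta and lies on chromosome 17 (48598768 to 48604264, minus strand). It had 2458, 2535 and 2520 CPM in albiflorin libraries, against 2587, 2304 and 2556 CPM in RANKL libraries. The albiflorin values fell inside the RANKL range, and the group means were 2504 ± 40.5 and 2482 ± 155 CPM (SD, n = 3 each). The log2 fold change was 0.013 (SE 0.066, 95% interval -0.13 to 0.15, edgeR adjusted p = 0.91).

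Hsp90aa1 encodes the stress-inducible HSP90-alpha. Its described row (chromosome 12, 116459485 to 116469997, minus strand) is annotated by the Chinese hamster protein. It had 310, 286 and 267 CPM in albiflorin libraries, against 345, 290 and 321 CPM in RANKL libraries. The groups overlapped at albiflorin 1 and RANKL 2, and the log2 fold change was -0.15 (SE 0.073, 95% interval -0.30 to 0.008, edgeR adjusted p = 0.16).

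An additional row without a biotype, described as mouse HSP90-alpha, lies 3402 bases beyond the 3′ end of that row on the same strand (116454580 to 116456082). It had 158, 174 and 158 CPM in albiflorin libraries, against 125, 141 and 126 CPM in RANKL libraries. Every albiflorin library was above every RANKL library, and the row rose by a log2 fold change of 0.32 (SE 0.067, 95% interval 0.18 to 0.46, edgeR adjusted p = 0.0031). The call was lost and the sign turned with the gene-length trend removed (-0.022, edgeR adjusted p = 0.87) or the mRNA-length trend removed (-0.017, edgeR adjusted p = 0.91). The row has no GENCODE M21 length and entered both fits by its listed length of 883 bases, so they are not separate checks. Its count over that of the unnamed row was 0.57 ± 0.052 in albiflorin libraries and 0.414 ± 0.063 in RANKL libraries (SD, n = 3 each), a ratio looked at after the values had been seen. The groups did not overlap in it, and the exact two-sided permutation p was 0.1, the smallest that 3 against 3 libraries allow (0.2 adjusted over the 4 ratios compared). Whether the additional row is part of the Hsp90aa1 transcript was not tested. Pseudogene rows described as HSP90-alpha held 4.89% as many counts as the unnamed row, so reads of this gene may be split between near-identical copies.

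The balance of the HSP90 forms, taken as the Hsp90aa1 row over Hsp90ab1 in FPKM (the authors' counts scaled to listed gene length and library size), was 0.129, 0.115 and 0.109 in albiflorin libraries. In RANKL libraries it was 0.136, 0.129 and 0.129. The ranges overlapped, and the exact two-sided permutation test of the log2 ratio gave p = 0.3 for a difference of -0.16 (0.3 adjusted over the 4 ratios). With the counts of the additional row added to those of the Hsp90aa1 row, the log2 ratio of counts to Hsp90ab1 differed by -0.0093. That is a ratio of counts and not of FPKM. In FPKM the shorter additional row stood above the Hsp90aa1 row, at 183.5 against 97.5 in albiflorin libraries. In RANKL libraries it stood at 147.3 against 108, so a sum of FPKM need not give the same sign.

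Chordc1 encodes a zinc-binding co-chaperone of HSP90 (chromosome 9, 15893468 to 15915251, plus strand). It had 192, 203 and 202 CPM in albiflorin libraries, against 189, 192 and 189 CPM in RANKL libraries. The lowest albiflorin and the highest RANKL value nearly coincided, and the log2 fold change of 0.067 was not called (SE 0.057, 95% interval -0.054 to 0.19, edgeR adjusted p = 0.43). It passed with the mRNA-length trend removed, as given below.

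In the HSP70 system, no member was called. The row described as bovine HSPA8 (chromosome 9, 40278176 to 40287719, plus strand) contains on its strand the rows of the small nucleolar RNA genes Snord14c, Snord14d and Snord14e, which lie within mouse Hspa8 in GENCODE M21. It had 1716, 1806 and 1981 CPM in albiflorin libraries, against 1944, 1631 and 1710 CPM in RANKL libraries. These ranges overlapped over most of their width, with a log2 fold change of 0.058 (SE 0.077, 95% interval -0.10 to 0.22, edgeR adjusted p = 0.63).

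Hspa4, an HSP110-family exchange factor (chromosome 11, 54214297 to 54259894, minus strand), had 512, 577 and 546 CPM in albiflorin libraries, against 490.1, 477 and 505 CPM in RANKL libraries. All 3 albiflorin values were above all 3 RANKL values, the only such member beside Hspe1; of all tested genes 20.8% were separated in this direction, 19.3% in the other and 40.1% in either. The log2 fold change was 0.15 (SE 0.063, 95% interval 0.017 to 0.28) and missed the threshold after adjustment (edgeR adjusted p = 0.097). It passed with a length trend removed, as given below.

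Hsph1, the other HSP110-family exchange factor among the members (chromosome 5, 161163128 to 161186514, minus strand), had 156, 164 and 161 CPM in albiflorin libraries, against 173, 163 and 165 CPM in RANKL libraries. Its log2 fold change was -0.058 (SE 0.059, 95% interval -0.18 to 0.066, edgeR adjusted p = 0.51), and the groups overlapped. Set against Hspa8 in FPKM, Hsph1 stood at 0.0502 ± 0.0033 in albiflorin libraries and 0.0544 ± 0.0031 in RANKL libraries (SD, n = 3 each; exact two-sided permutation p = 0.3, and 0.3 adjusted over the 4 ratios).

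Dnajb1, the main heat-inducible J-domain protein of the cytosol (chromosome 8, 87667947 to 87671674, plus strand), had 49.1, 45.0 and 48.7 CPM in albiflorin libraries, against 47.1, 38.7 and 43.4 CPM in RANKL libraries. The groups overlapped at RANKL 1, and the log2 fold change was 0.15 (SE 0.082, 95% interval -0.027 to 0.32, edgeR adjusted p = 0.21). Bag3 couples HSP70 to small heat-shock proteins and to selective autophagy of misfolded clients (chromosome 7, 138144384 to 138171367, plus strand). It had 37.1, 43.3 and 45.8 CPM in albiflorin libraries, against 43.6, 45.2 and 46.0 CPM in RANKL libraries. The RANKL values lay within or just above the albiflorin range, and the log2 fold change was -0.096 (SE 0.084, 95% interval -0.27 to 0.083, edgeR adjusted p = 0.45). Dnajb1 and Bag3 are among the most strongly heat-induced genes of mammalian cells in general, and in these libraries they had the lowest levels of the 10 members.

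Of the mitochondrial pair, Hspe1 was called and Hspd1 was not. They are neighbours on chromosome 1, in rows that run in opposite directions (57052193 to 57072671, minus strand, and 57072560 to 57075735, plus strand) and share 112 bases. No source used here says whether the counting respected strand, so reads in those bases cannot be assigned to either gene. Hspd1 had 356, 343 and 366 CPM in albiflorin libraries, against 396, 356 and 384 CPM in RANKL libraries. The groups overlapped, with albiflorin values low in or below the RANKL range, and the log2 fold change of -0.094 was not called (SE 0.062, 95% interval -0.23 to 0.038, edgeR adjusted p = 0.30).

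Hspe1 had 188, 222 and 164 CPM in albiflorin libraries, against 143, 137 and 140 CPM in RANKL libraries. The RANKL libraries were nearly level, with a coefficient of variation of 1.91%, whereas the albiflorin libraries were spread over 15.3% and stood above them in 3 of 3. The log2 fold change was 0.45 (SE 0.085, 95% interval 0.27 to 0.63), a 1.37-fold level with an interval of 1.21 to 1.55, and edgeR's adjusted p was 0.0018. Leaving out 1 library at a time kept the call, with log2 fold changes of 0.33 without albiflorin 2 to 0.55 without albiflorin 3 and edgeR adjusted p of 0.00012 to 0.014. It was 0.22 and called without the gene-length trend, and with the mRNA-length trend removed it was 0.077 and not called (edgeR adjusted p = 0.43), as described below.

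The ratio of Hspe1 to Hspd1 in FPKM was 1.34, 1.65 and 1.14 in albiflorin libraries, against 0.916, 0.981 and 0.925 in RANKL libraries. The groups did not overlap, the log2 ratio differed by 0.53, and the exact two-sided permutation p of 0.1 was again the smallest that this design allows (0.2 adjusted over the 4 ratios). The size of the ratio itself depends on the listed lengths of 1474 bases for Hspe1 and 3751 bases for Hspd1, which join all exons of a gene. In fits with the gene-length trend removed the log2 fold changes were 0.22 for Hspe1 and -0.10 for Hspd1, and with the mRNA-length trend removed they were 0.077 and -0.15, so the distance between the genes was smaller in both.

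**Figure D2:**
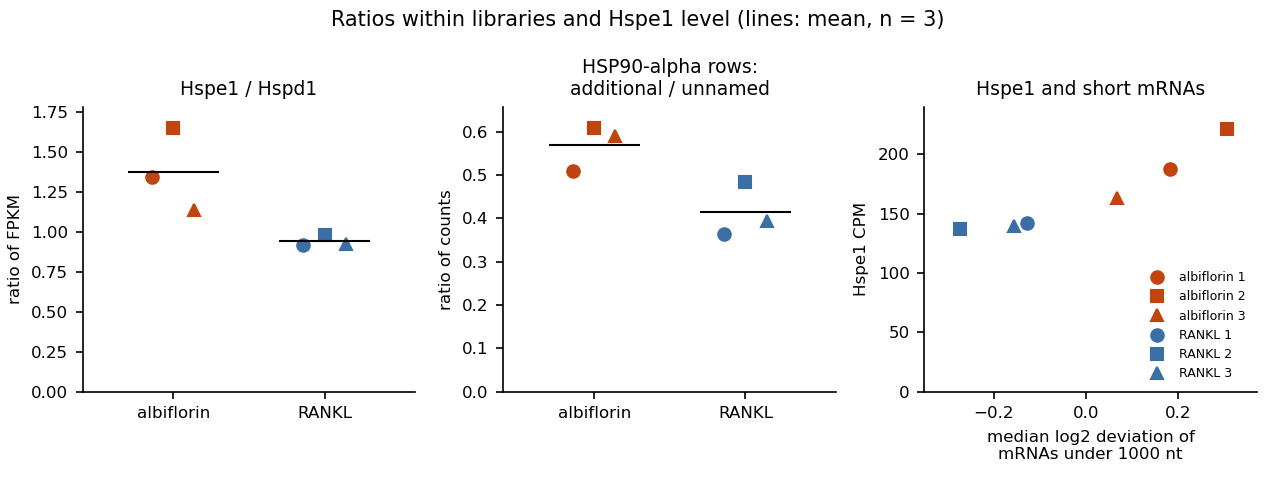
Left and middle, the Hspe1 to Hspd1 FPKM ratio and the count ratio of the 2 HSP90-alpha rows by library (lines are means, n = 3); right, Hspe1 CPM against the median log2 deviation of mRNAs under 1000 nt in the same library. Both ratios separate the groups, at 1.14 to 1.65 against 0.916 to 0.981 for Hspe1 over Hspd1, and Hspe1 follows the order of the short mRNAs.

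Fold changes moved with mRNA length over the whole table, and Hspe1 has the shortest mRNA of the members with a GENCODE M21 length, at 774 nt. Of the tested genes with an mRNA under 1000 nt, 628 in number, 58.6% were called higher, their median log2 fold change was 0.38, and 414 had a smaller value than Hspe1. The 470 genes of 8000 nt or more had a median of -0.29, and 0.426% of them were called higher. Per library, the median log2 deviation from the gene mean was taken over 668 genes under 1000 nt with a mean log2 CPM over 3, those without a GENCODE M21 length entered by their listed length. It was 0.18, 0.31 and 0.067 in albiflorin libraries, against -0.13, -0.27 and -0.16 in RANKL libraries. These medians put the 6 libraries in the same order as the Hspe1 CPM did, from albiflorin 2 at the top to RANKL 2 at the bottom.

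**Figure D3:**
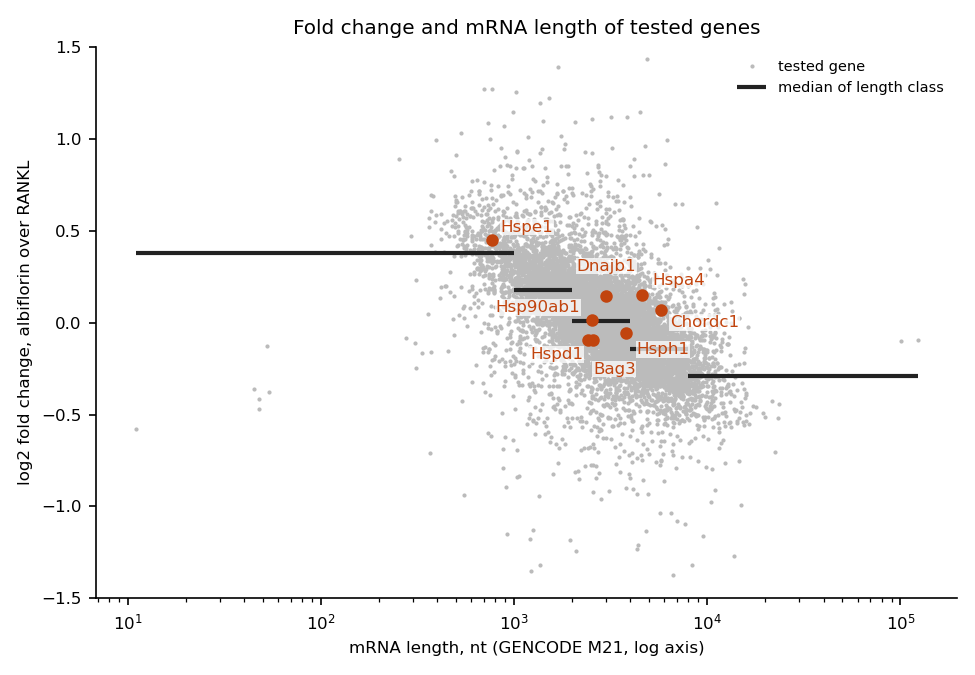
Log2 fold change (albiflorin over RANKL) against mRNA length in nucleotides (log axis) for 10471 tested genes with a GENCODE M21 length (10 beyond ±1.5 not drawn); black lines are medians of length classes and orange points the 8 members found by symbol. Class medians run from 0.38 under 1000 nt to -0.29 from 8000 nt, and Hspe1 lies near the line of its class.

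With each library's trend on mRNA length removed, an alternative added after the data had been seen, the log2 fold change of Hspe1 was 0.077 and no longer called (edgeR adjusted p = 0.43). In that fit 4.99% of all genes were called higher and 5.52% lower, 10.5% in all. Removing instead the trend on the listed gene length left Hspe1 called, at 0.22 (edgeR adjusted p = 0.034), in a fit that called 7.18% of all genes higher and 7.96% lower, 15.1% in all. Hspa4, whose mRNA of 4618 nt is long, had log2 fold changes of 0.26 without the mRNA-length trend (edgeR adjusted p = 0.011) and 0.22 without the gene-length trend (edgeR adjusted p = 0.019), called higher in both. Chordc1 was called higher at 0.23 without the mRNA-length trend (edgeR adjusted p = 0.010) and stood at -0.068 without the gene-length trend (edgeR adjusted p = 0.43); its length is 5789 nt in GENCODE M21 and 2205 in the deposited table. The Hsp90aa1 row was called lower at -0.21 without the gene-length trend (edgeR adjusted p = 0.031). The additional HSP90-alpha row stood at -0.022 without the gene-length trend and -0.017 without the mRNA-length trend, called in neither. It and the unnamed Hspa8 and Hsp90aa1 rows entered the mRNA-length fit by their listed lengths of 883, 4161 and 2929 bases. Hspa8, Hspd1, Hsph1, Hsp90ab1, Dnajb1 and Bag3 were called in none of the 17 alternatives.

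**Figure D4:**
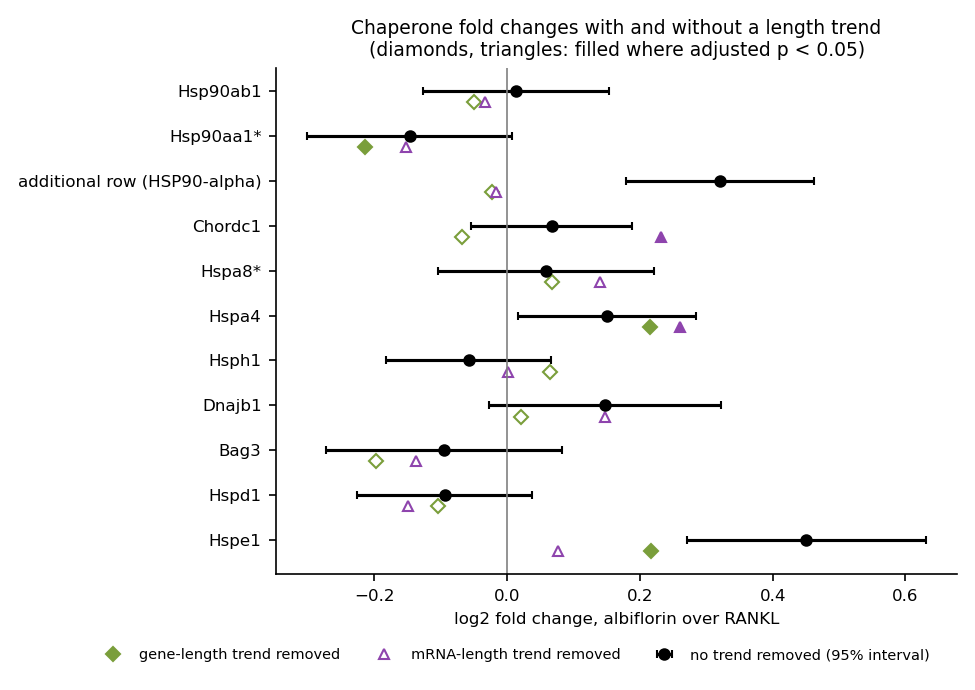
Log2 fold change (albiflorin over RANKL) of each chaperone with its 95% interval (black) and after removal of the gene-length trend (diamonds) or the mRNA-length trend (triangles); filled diamonds and triangles passed adjusted p under 0.05, and asterisks mark rows without a symbol. Hspe1 stands at 0.45, 0.22 and 0.077 in that order, and Hspa4 at 0.15, 0.22 and 0.26.

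In level per listed length, the members kept a wide order. Hsp90ab1 stood at 829 ± 13.5 FPKM in albiflorin libraries and 824 ± 50.9 FPKM in RANKL libraries, and Hspa8 at 438 ± 33.0 and 422 ± 38.9 FPKM (SD, n = 3 each). These were the top members in each of the 6 libraries. In albiflorin libraries Hspe1 came next at 129 ± 19.4 FPKM, above Hspa4 (97.8 ± 5.77), the Hsp90aa1 row (97.5 ± 7.02), Hspd1 (93.9 ± 3.31) and Chordc1 (89.7 ± 2.78), whose neighbours in that order overlapped. In RANKL libraries Hspe1, at 94.4 ± 1.76 FPKM, stood below the Hsp90aa1 row (108 ± 9.25) in each of these libraries and below the mean of Hspd1 (101 ± 5.41), whose range it overlapped, and above Hspa4 (88.3 ± 2.46) and Chordc1 (85.8 ± 0.902). Hsph1, Dnajb1 and Bag3 were lowest, at 21.9 ± 0.4995, 20.9 ± 1.02 and 16.3 ± 1.77 FPKM in albiflorin libraries and 22.9 ± 0.757, 19.0 ± 1.84 and 17.5 ± 0.461 FPKM in RANKL libraries.

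The 10 rows together held 0.596%, 0.611% and 0.626% of all counts in albiflorin libraries, against 0.633%, 0.571% and 0.612% in RANKL libraries, so their summed share overlapped between groups. Hsp90ab1 alone made up 39.99% to 41.2% of that sum in albiflorin libraries and 40.7% to 42.2% in RANKL libraries. Within each group the highest and lowest values of the members were unevenly spread over the libraries. The same shares over all tested genes were not taken, so the counts describe these 10 rows alone. RANKL 2 was the lowest of its group for 8 of the 10 and RANKL 1 the highest for 7, while albiflorin 1 was the lowest of its group for 6 and albiflorin 2 the highest for 5.

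For each member, the gene with the most similar profile over the 6 libraries was sought among 8781 genes with a mean of at least 10 CPM. For Hspe1 it was Mdh1, the cytosolic malate dehydrogenase, with a Pearson r of 0.999 in log2 CPM and a log2 fold change of its own of 0.35 (edgeR adjusted p = 0.0036). The nearest gene was Tesk1 for Hspd1 (r = 0.998), Ube2q1 for Hspa4 (r = 0.992), Nif3l1 for Hspa8 (r = 0.990), Ltbr for Hsph1 (r = 0.978), and D10Wsu102e for the Hsp90aa1 row (r = 0.969). For Hsp90ab1 it was Dlgap4 (r = 0.987), for Dnajb1 Nt5m (r = 0.987), for Bag3 Srpk1 (r = 0.985) and for Chordc1 Cnih1 (r = 0.989). These are the best matches of a wide search over 6 libraries that share depth and the length trend, given as a description. No gene was nearest to more than 1 member.

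Around the members, the rest of the folding network was read from lists of its classes, most of them with more genes called higher than lower. Each count stands against the 12.4% higher and 11.4% lower of all tested genes, and against 4.99% and 5.52% with the mRNA-length trend removed.

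Other HSP70 and small heat-shock genes gave a single call. Of 8 tested, 1 was called higher and none lower, with a median log2 fold change of -0.012. The called gene was Hspb11 (0.44, SE 0.10, edgeR adjusted p = 0.0061), now known as an intraflagellar transport subunit; it was not called without the mRNA-length trend (edgeR adjusted p = 0.92), where Hspa4l was called instead. The count was 2 without RANKL 3 or without albiflorin 3, and 0 with the gene-length trend removed. Hspa1b, the classical heat-inducible HSP70, had 12.3, 13.2 and 11.3 CPM in albiflorin libraries, against 12.4, 12.6 and 11.1 CPM in RANKL libraries. Its near-identical neighbour Hspa1a had no row under its symbol, so reads of the pair are uncertain. The small heat-shock genes Hspb1, Cryab and Hspb8 had 3, 1 and 9 counts over all 6 libraries and were not tested. Hspa1b, Hspa4l and these small heat-shock genes were named after their values had been seen.

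J-domain genes went both ways. Of 15 tested, 2 were called higher and 2 lower; 1 was called higher without RANKL 1, RANKL 2, albiflorin 1 or albiflorin 2. Dnajc8, a partner of splicing factors, rose by 0.27 (SE 0.066, edgeR adjusted p = 0.0084). Dnajc13, which acts on endosomes, had a log2 fold change of -0.33 (SE 0.065, edgeR adjusted p = 0.0020), and Dnajb14, anchored in the endoplasmic reticulum membrane, one of -0.33 (SE 0.067, edgeR adjusted p = 0.0029). None of these 3 was called without the mRNA-length trend (edgeR adjusted p = 0.54, 0.19 and 0.55 in that order). Without the gene-length trend Dnajc8 was called (edgeR adjusted p = 0.048), and Dnajc13 and Dnajb14 were not (edgeR adjusted p = 0.089 and 0.34).

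Among 9 nucleotide exchange and BAG genes, 3 were called higher and none lower, and 1 was called higher without albiflorin 1 or without albiflorin 2. Grpel1, the exchange factor of mitochondrial HSP70, had 74.4 ± 5.55 CPM in albiflorin libraries and 60.1 ± 2.18 CPM in RANKL libraries (SD, n = 3 each), a log2 fold change of 0.31 (SE 0.071, edgeR adjusted p = 0.0057). It was the 1 gene of this list also called without the mRNA-length trend (edgeR adjusted p = 0.0046). Hspbp1 rose by 0.27 and Bag5 by 0.25 (edgeR adjusted p = 0.012 and 0.025), and without that trend they were not called (edgeR adjusted p = 0.36 and 0.15).

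HSP90 co-chaperones numbered 20 tested, with 2 called higher and 1 lower. Leaving out any RANKL library or albiflorin 1 left 1 called higher, and leaving out albiflorin 2 left 0. The lower call was lost without RANKL 2, RANKL 3, albiflorin 1 or albiflorin 2 and on log2 FPKM. Sugt1 rose by 0.24 (SE 0.0696, edgeR adjusted p = 0.019). It stayed called without the mRNA-length trend (edgeR adjusted p = 0.0018) but not without the gene-length trend (edgeR adjusted p = 0.45). Ppid, cyclophilin 40, rose by 0.20 (edgeR adjusted p = 0.026). Fkbp5, a glucocorticoid-responsive immunophilin, fell, with a log2 fold change of -0.25 (edgeR adjusted p = 0.020). Without the mRNA-length trend neither Ppid nor Fkbp5 passed (edgeR adjusted p = 0.56 and 0.064). Without the gene-length trend Ppid passed (edgeR adjusted p = 0.012) and Fkbp5 did not (edgeR adjusted p = 0.11). Cdc37, the kinase-specific co-chaperone, was called only with the mRNA-length trend removed (edgeR adjusted p = 0.0197) and was named after its value had been seen.

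The heat-shock transcription factors themselves were not called. Hsf1, which drives the heat-shock response, had 59.9, 57.5 and 59.4 CPM in albiflorin libraries, against 53.8, 49.1 and 54.3 CPM in RANKL libraries. All albiflorin values were above all RANKL values, but the log2 fold change of 0.17 missed the threshold (edgeR adjusted p = 0.086); this gene was named after its values had been seen. Hsbp1, a small HSF1-binding protein, rose by 0.30 (SE 0.079, edgeR adjusted p = 0.011), and was not called without the mRNA-length trend (edgeR adjusted p = 0.62), without RANKL 2 or on log2 FPKM.

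Of 16 other mitochondrial chaperones and proteases, 5 were called higher and none lower, with a median of 0.11; 2 were called higher without RANKL 2 or without albiflorin 1. Hscb, which hands iron-sulphur clusters on, rose by 0.40 (SE 0.091, edgeR adjusted p = 0.0051), the prohibitin Phb by 0.30 (SE 0.071, edgeR adjusted p = 0.0063) and the import motor subunit Dnajc19 by 0.39 (SE 0.10, edgeR adjusted p = 0.011). Without the gene-length trend 4 of the 16 were called higher, against 7.18% of all genes. Phb and Dnajc19 were among them (edgeR adjusted p = 0.023 and 0.013), and Hscb was not (edgeR adjusted p = 0.61). Without the mRNA-length trend Hscb, Phb and Dnajc19 were not called (edgeR adjusted p = 0.76, 0.088 and 0.93). The 1 gene of the list that was called there, Clpb, was named after its value had been seen. Hspa9, the mitochondrial HSP70 that works beside Hspd1 and Hspe1, had 984 ± 28.4 CPM in albiflorin libraries and 966 ± 33.9 CPM in RANKL libraries (SD, n = 3 each; edgeR adjusted p = 0.80) and was named the same way.

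The cytosolic chaperonin TRiC, which folds actin and tubulin, and prefoldin, which delivers them, had a median of 0.24. Of 14 tested, 10 were called higher and none lower, and 6 were called higher without albiflorin 1. Pfdn5 had 121 ± 11.2 CPM in albiflorin libraries and 86.4 ± 1.97 CPM in RANKL libraries (SD, n = 3 each), a log2 fold change of 0.48 (SE 0.0697, edgeR adjusted p = 0.00039). Pfdn4 rose by 0.56 (edgeR adjusted p = 0.00070) and Pfdn6 by 0.53 (edgeR adjusted p = 0.0022). Without the gene-length trend 4 of the 14 were called. Pfdn6 was among these (edgeR adjusted p = 0.038), Pfdn5 and Pfdn4 were not (edgeR adjusted p = 0.091 and 0.21). With the mRNA-length trend removed also 4 were called, at a median of 0.14. There Pfdn5 was among them (edgeR adjusted p = 0.043), Pfdn4 and Pfdn6 were not (edgeR adjusted p = 0.091 and 0.43). The TRiC genes Cct4 and Cct7, named after their values had been seen, were called with no trend removed and in both length fits. Their edgeR adjusted p was 0.023 and 0.032 without the mRNA-length trend, and 0.0055 and 0.00091 without the gene-length trend.

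In the endoplasmic reticulum, 5 of 17 chaperone genes were called higher and none lower, and 4 with the mRNA-length trend removed. The count fell to 1 without RANKL 2, without albiflorin 1 or on log2 FPKM, to 2 without RANKL 3 or without albiflorin 2, and to 3 with no filter on low counts or the gene-length trend removed. Manf, a secreted reticulum-stress protein, had 195 ± 19.1 CPM in albiflorin libraries and 148 ± 8.39 CPM in RANKL libraries (SD, n = 3 each), a log2 fold change of 0.40 (SE 0.073, edgeR adjusted p = 0.0015). The disulphide isomerases P4hb and Pdia3 rose by 0.23 and 0.22 (edgeR adjusted p = 0.017 and 0.019). All 3 stayed called without the mRNA-length trend (edgeR adjusted p = 0.0043, 0.014 and 0.021). Without the gene-length trend Manf and Pdia3 were called (edgeR adjusted p = 0.0016 and 0.041), and P4hb was not (edgeR adjusted p = 0.060).

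Other genes that heat and proteotoxic stress are known to induce gave 7 called higher of 13 and none lower. With either length trend removed, without RANKL 3 or without albiflorin 1, 4 were called higher. The immediate-early factor Fos had the largest log2 fold change of the list at 3.70 (SE 0.22, edgeR adjusted p = 1.058e-07), followed by Jun at 1.12 (SE 0.13, edgeR adjusted p = 0.00014). Ppp1r15a, which restores translation by directing dephosphorylation of eIF2-alpha, had 42.7 ± 5.97 CPM in albiflorin libraries and 24.4 ± 2.38 CPM in RANKL libraries (SD, n = 3 each; log2 fold change 0.81, edgeR adjusted p = 0.00028). All 3 remained called without the mRNA-length trend.

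**Figure D5:**
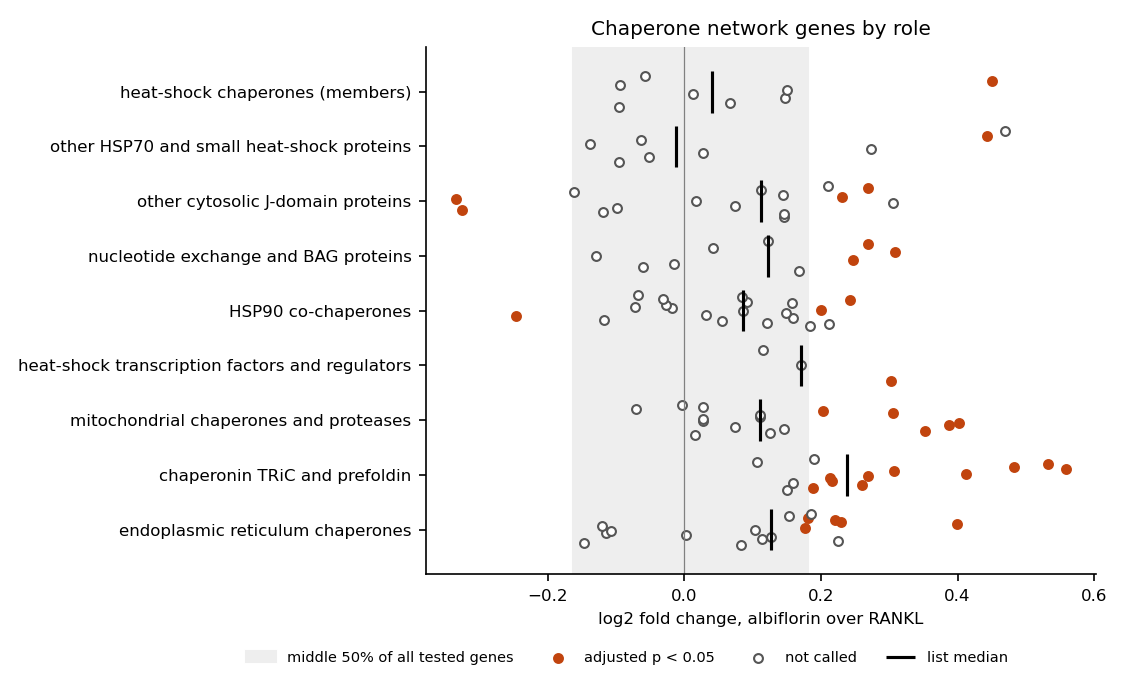
Log2 fold changes (albiflorin over RANKL) of tested chaperone-network genes by class, with calls at adjusted p under 0.05 filled, class medians as bars and the middle 50% of all tested genes in grey (the bare vertical line marks 0). The members' median is 0.04, and TRiC with prefoldin has the highest class median drawn, 0.24, with 10 of 14 genes called higher.

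The libraries held 13708041 to 15200418 counts in the albiflorin group and 13673284 to 15489482 in the RANKL group, with correlations of log2 CPM of 0.982 to 0.992 between libraries. Macrophage markers summed to 3710 to 3859 CPM in albiflorin libraries and 3522 to 3843 CPM in RANKL libraries, with Cd14 and Spi1 called higher and Adgre1 lower (log2 fold changes 0.26, 0.31 and -0.30). Of that list Itgam had 1 count over all 6 libraries and was not tested, and Lyz2 had no row under its symbol. Cd14 was not called with the mRNA-length trend (edgeR adjusted p = 0.28) or the gene-length trend removed (edgeR adjusted p = 0.61), nor on log2 FPKM, without RANKL 2 or without albiflorin 1, and Adgre1 was not called without RANKL 1 (edgeR adjusted p = 0.051). Osteoclast markers summed to 186 to 196 CPM in albiflorin libraries and 194 to 208 CPM in RANKL libraries, with Acp5 called higher and Nfatc1 lower (0.29 and -0.22), and the defining marker Ctsk had 50 counts in all. Nfatc1 held most of that sum, at 122 ± 5.50 CPM in albiflorin libraries and 143 ± 7.45 CPM in RANKL libraries (SD, n = 3 each). The median log2 fold change of the 7 tested was 0.29, and 0.071 with the mRNA-length trend removed. With the mRNA-length or the gene-length trend removed neither Acp5 nor Nfatc1 was called (edgeR adjusted p = 0.67 and 0.62 for Acp5, 0.15 and 0.21 for Nfatc1). Acp5 was also not called under DESeq2 or without RANKL 1, RANKL 2, albiflorin 1 or albiflorin 2, and Nfatc1 not without RANKL 2, albiflorin 1 or albiflorin 2. Osteoblast and fibroblast markers summed to at most 3.30 CPM in albiflorin libraries and 4.59 CPM in RANKL libraries, with Pdgfra and Dcn at 0 and Runx2 not called (edgeR adjusted p = 0.28). T and B cell markers summed to at most 1.56 CPM in albiflorin libraries and 1.59 CPM in RANKL libraries, with Cd3e, Cd8a, Ms4a1 and Pax5 at 0 and Cd4 not called (edgeR adjusted p = 0.83).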

How the data were processed

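RNA sequencing of 6 libraries was grouped by sample titles. The deposited table holds raw counts per gene, and a deposited FPKM table made by the authors matched those counts divided by listed gene length and a library total within -0.95% to 1.65% of the column total. The submitters' processing notes name DESeq2 1.42.0, HISAT2 2.2.1, featureCounts 2.0.6-p3, fastp and CASAVA 1.8 without saying what each did. Genome build and strand setting are not stated in the sources used.

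The members and gene lists were chosen with earlier results of these data known. Counts were tested in edgeR 4.0.16 (R 4.3.3; filterByExpr, TMM scaling, quasi-likelihood F-test on group, Benjamini-Hochberg adjustment over 13158 genes). SE is the absolute log2 fold change over the square root of F. On simulated counts for 13018 genes the test recovered 87.5% of 200 genes changed and made 9 false calls. All changed genes were given the same size of fold change, up or down, which was larger than that of any member. No length trend was simulated. These figures hold for those counts alone. Recovery by size of fold change, such as the small ones of most members, or by mRNA length was not tested. Ratios of FPKM were compared by exact two-sided permutation tests.

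Named were all members, per list the called genes of smallest p, at most 3 (where none was called, the one with the highest mean CPM), and the most similar gene per member; others are marked. Alternatives were RLE scaling, DESeq2 1.42.0, limma-voom (limma 3.58.1), no filter, a filter of 5 CPM in 3 libraries, the replicate number as a block, each library left out, limma on log2(FPKM + 1) and log2(FPKM + 0.1), and lowess trends (span 0.3) on listed gene length or, added after the data were seen, on principal mRNA length in GENCODE M21 (79.6% of tested genes; listed length otherwise). The HSP90-alpha sums and count ratio were also added then.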

Additional observations from a re-analysis of the deposited data

How the results depend on the processing

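Over all genes, 1631 were called higher and 1496 lower. With the gene-length trend removed 945 were higher, with that and the replicate block 813 higher and 887 lower, and with the mRNA-length trend removed 657 higher and 726 lower; limma on log2(FPKM + 1) and log2(FPKM + 0.1) gave 901 and 909 lower. The replicate block alone gave 1358 higher and 1214 lower with the members' calls as before, 2 endoplasmic reticulum chaperones in place of 5, 1 HSP90 co-chaperone called higher in place of 2 and Acp5 not called; with the gene-length trend also removed the Hsp90aa1 row was called (-0.22, edgeR adjusted p = 0.021). In the block check, same-numbered libraries deviated together with correlations of 0.022, -0.043 and -0.066, so the numbers give no pairing. Leaving out 1 library gave 984 to 1753 higher and 914 to 1644 lower, with 984 higher without albiflorin 1, 1025 without albiflorin 2 and 1010 without RANKL 2. Lower calls were 914 without RANKL 2 and 977 without albiflorin 1. Members found by symbol and called higher were 1 under each library left out, with 0 lower, and 2 without the gene-length trend, with or without the block (Hspe1 and Hspa4), and 2 without the mRNA-length trend (Hspa4 and Chordc1). With a library left out the log2 FPKM ratio differences were 0.395 to 0.663 for Hspe1 over Hspd1 and -0.23 to -0.11 for Hsp90aa1 over Hsp90ab1. For Hsph1 over Hspa8 they were -0.16 to -0.062, and the summed share differed by -0.012 to 0.019 percentage points. Both HSP90-alpha rows summed over Hsp90ab1, in counts and with all 6 libraries, gave -0.0093.

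Some signs turned. Hsph1 was 0.065 without the gene-length trend, with or without the block, and 0.002 without the mRNA-length trend. Hsp90ab1 was -0.0497, -0.0487 with the block, and -0.033 in those fits, -0.037 without RANKL 2 and -0.0005 without albiflorin 2 (-0.037 to 0.044 with a library left out). Chordc1 was -0.0685, and -0.0684 with the block. Hspa8 was -0.0014 without albiflorin 3 (up to 0.13). The additional HSP90-alpha row, called at 0.32, was -0.022, -0.017 with the block, and -0.017 without the mRNA-length trend, where Dnajc19, called at 0.39, was -0.017. Cd4 was 0.027 without RANKL 2 and 0.22 without albiflorin 1 (down to -0.51). The cause was not tested. Bag3, the least counted member, had 3781 counts over the 6 libraries.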
